A study of Mus musculus with 8 samples.

Results

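The collagen, laminin, glypican and syndecan genes of mouse liver were examined in animals with raised or lowered Ube3a. They were taken by gene symbol (Col followed by a number, the letter a and a number; Lam with a, b or c and a number; Gpc or Sdc with a number), with no use of measured values. Of 13773 genes named in either of the deposited tables, 52 were members: 32 collagens, 11 laminins, 5 glypicans and 4 syndecans. All 52 stood in the table for the Ube3a transgenic livers, and 36 of them (20 collagens, 8 laminins, 4 glypicans and 4 syndecans) also stood in the table for the heterozygous livers.

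RNA of whole liver was sequenced as TruSeq libraries, 2 per group in 4 groups. All animals were C57BL/6 mice given a high-fat diet (42% fat) for 8 weeks. The group called TG is homozygous for a transgene that overexpresses Ube3a, and the group called het carries 1 knockout and 1 wild-type Ube3a allele; each has its own WT pair. The labels give neither the promoter of the transgene nor the age and sex of the mice, and do not say whether each library is a separate animal, so that the p-values measure the spread between these libraries, which may be technical.

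Collagens are triple-helical proteins of the extracellular matrix. The fibrillar types make the tensile fibres that accumulate in a scarred liver, whereas type IV collagen and the laminins, which assemble from an alpha, a beta and a gamma chain, build the sheets of basement membrane under epithelium and around vessels. Glypicans, held in the membrane by a lipid anchor, and syndecans, which span it, carry heparan sulfate chains on the cell surface that bind growth factors, and in liver also lipoprotein particles.

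The TG table held 44193275 to 47928229 reads per library, and libraries of the het table had 13171145 to 17748088, so that low genes were counted less precisely in the het table. The members made up 0.209 to 0.254% of each library's summed values. Ube3a itself stood at 1190 and 1360 normalised reads in the WT pair of the TG table and at 5990 and 5940 in TG, and at 369 and 409 in the other WT pair and 301 and 280 in het. Neither difference of Ube3a passed the test across all genes (adjusted p = 0.0586 and 0.129). Xist, which is transcribed from the inactive X of female cells, had 42800 to 52700 normalised reads in libraries of the TG table, against 13400 to 14400 in those of the other, and no Y-linked gene of 4 looked for was among the genes of either table. Of 16 hepatocyte markers, 14 were listed in each table (11 above WT in TG and 8 in het), and albumin took 5.79 to 7.94% of the values. The values are read counts divided by 1 factor per library, called normalised reads here. The 2 tables were scaled separately, so each mutant was compared only with the WT pair of its table, by limma over all genes; a change is called where the p-value, adjusted by Benjamini and Hochberg's method, is under 0.05. A fold is the ratio of the group means, and a log2 fold change is on the log2(value + 1) scale, where changes of low genes come out too small.

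In het livers, 5 members rose and none fell past the threshold: Lamb3, Gpc1, Col5a3, Col15a1 and Col4a1, by 1.79 to 5.22 times. Of all 11773 genes of that table, 1.44% passed, 0.892% as higher and 0.544% as lower, against 5 of 36 members. At an unadjusted p under 0.05 there were 14 of 36 members against 14.7% of all genes, 10 of them higher (8.58% of all genes) and 4 lower (6.11%). In TG livers no member passed, nor did any of all 13774 genes (0%). At an unadjusted p under 0.05 there were 6 of 52 members, against 9.12% of all genes, 5 of them lower (3.96% of all genes) and 1 higher (5.15%). Col5a3 was the member with the largest fold there, 8.75 times lower in TG than in WT. Every one of the 5 members that rose in het had a mean below WT in TG.

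The stretches just before the transcription starts of Col5a3, Lamb3 and Gpc3 are shown because their changes had opposite signs in TG and het. The changes were large in both for Col5a3 and Lamb3, and in het alone for Gpc3, whose TG libraries overlapped WT. RefSeq holds a start for each of these members. The sequences are from RefSeq on GRCm38.p6, 5′ to 3′ on the strand of the gene. Capitals mark a GC box (GGGCGG, or CCGCCC where it lies on the other strand) or a CCAAT box (CCAAT); the marked letters of these motifs do not overlap. Col5a3 is at chr9:20815068-20815317 on the minus strand, Lamb3 at chr1:193301744-193301992 on the plus strand and Gpc3 at chrX:52613975-52614224 on the minus strand.
Col5a3: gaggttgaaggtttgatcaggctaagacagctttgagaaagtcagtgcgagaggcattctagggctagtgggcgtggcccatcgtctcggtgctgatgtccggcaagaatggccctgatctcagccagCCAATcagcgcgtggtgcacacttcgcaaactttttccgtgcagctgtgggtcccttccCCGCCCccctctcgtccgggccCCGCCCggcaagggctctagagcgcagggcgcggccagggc
Lamb3: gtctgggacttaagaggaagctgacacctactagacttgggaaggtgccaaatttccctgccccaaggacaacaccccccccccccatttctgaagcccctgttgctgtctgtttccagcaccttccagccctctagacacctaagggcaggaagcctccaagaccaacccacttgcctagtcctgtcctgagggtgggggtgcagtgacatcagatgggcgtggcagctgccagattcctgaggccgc
Gpc3: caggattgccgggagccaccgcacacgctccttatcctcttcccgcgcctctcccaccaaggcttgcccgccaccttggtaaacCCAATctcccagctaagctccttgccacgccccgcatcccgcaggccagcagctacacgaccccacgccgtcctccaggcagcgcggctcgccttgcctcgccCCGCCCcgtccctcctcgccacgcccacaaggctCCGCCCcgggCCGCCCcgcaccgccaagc
The Col5a3 stretch held 2 GC boxes and 1 CCAAT box with 62.8% G or C, and the Gpc3 stretch 3 GC boxes and 1 CCAAT box with 71.6%. The Lamb3 stretch held neither, at 58.6% G or C. The Lamb3 gene model of GENCODE M21 starts upstream of the RefSeq start used here.

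Over all RefSeq promoter windows of 300 bases, searched on both strands, GGGCGG was found in 35.7%, CCAAT in 37.4% and TATAAA (the TATA box) in 13.6% of 32851. Of the 41 windows of the 38 members that matched by symbol, 29 held GGGCGG, 13 held CCAAT and 3 held TATAAA. These are matches of letters and say nothing of what binds there.

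Levels were compared between members only per kb of exon, and are ranked here in the WT libraries. Sdc4, a syndecan abundant on hepatocytes, was the highest member in both tables, with 8540 normalised reads per kb in the WT pair of the TG table and 2420 in that of the het table. Col18a1, the collagen whose cleavage gives endostatin, followed with 5230 and 1920, then Sdc1, the syndecan known as a hepatocyte receptor for remnant lipoproteins, with 3950 and 1050, and Sdc2 with 2160 and 750. Gpc4 (743 and 217), Sdc3 (690 and 141) and Col14a1, a collagen that decorates fibrils (582 and 138), came next in both tables.
Below these the order was not the same in both tables. Col3a1 (227) stood above Col4a1 (214) per kb in the first WT pair and below it (47.5 against 60.0) in the second, and in the first pair the libraries of Col3a1 were far apart, at 2690 and 1760 normalised reads. The lowest member was Col25a1, a neuronal transmembrane collagen, at 0.776 per kb in the TG table.

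**Figure D1:**
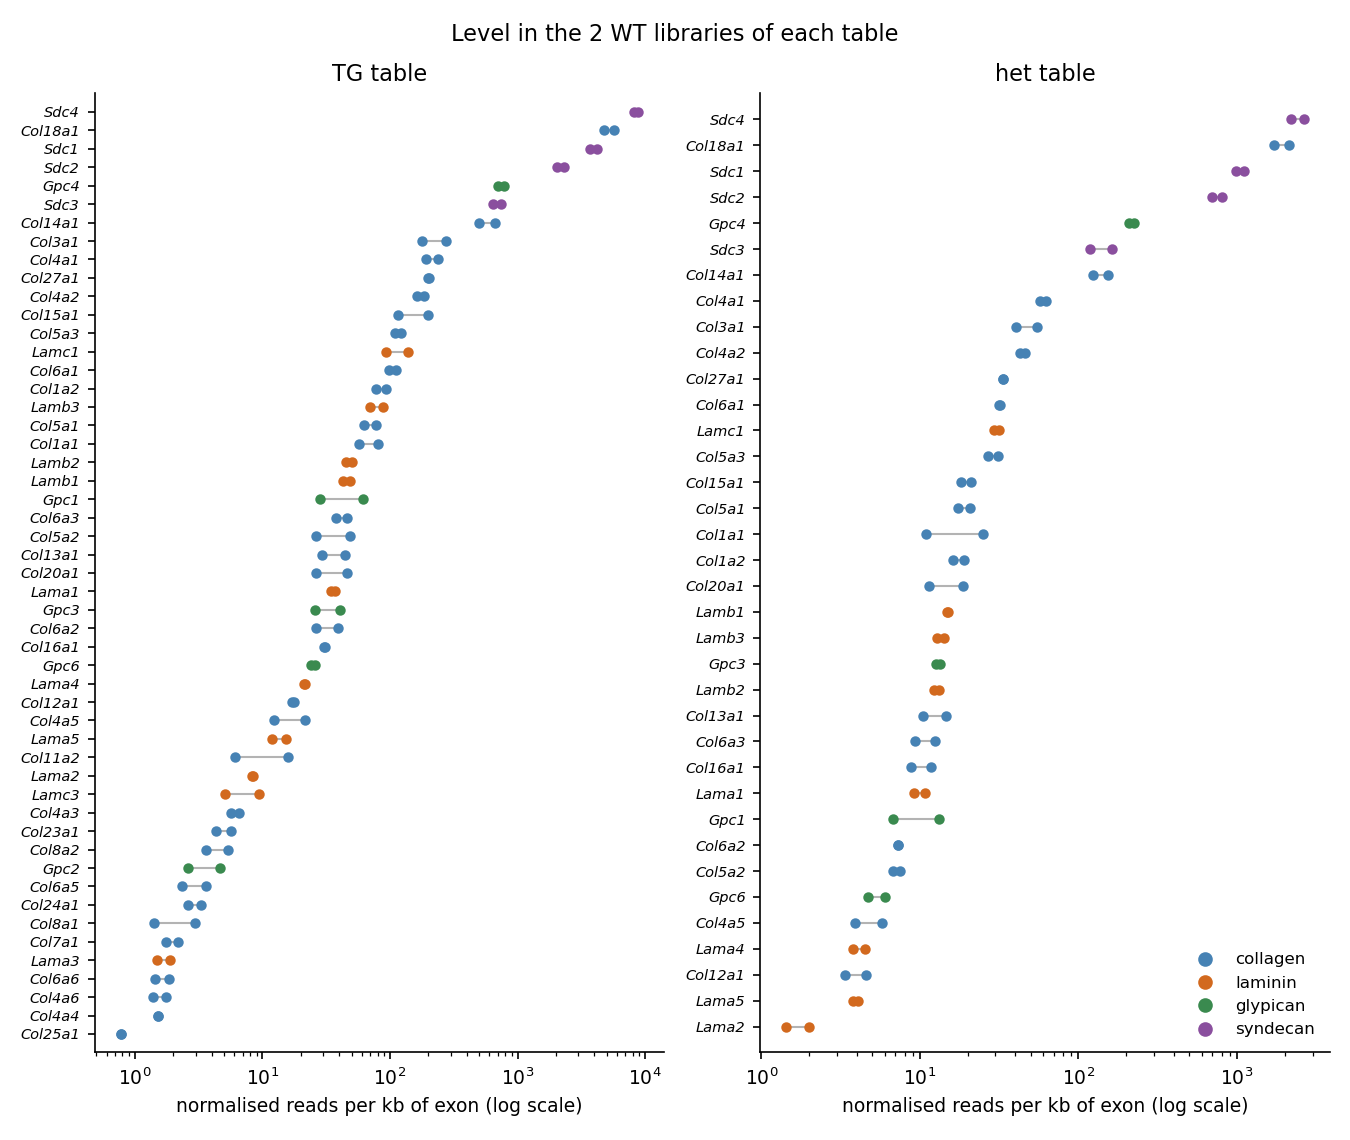
Level of members in both WT libraries, for genes of the TG table (left) and the het table (right), as normalised reads per kb of exon on a log axis; a line joins both libraries and the colour gives the family. Syndecans, Col18a1 and Gpc4 stand at the top of both panels, and Sdc4 is the highest in each (8540 and 2420 per kb).

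The members highest in their class by this measure, other than those described below, were Col14a1, Col18a1, Col3a1, Col13a1 (a transmembrane collagen), Lama1, Lamb1 (in the het table only; Lamb3 was highest in the TG table), Gpc4 and Sdc4, and none of them passed the test in either table. Col18a1 had 40200 and 33300 normalised reads in WT and 44700 and 40700 in TG, and 14900 and 12100 in WT and 12700 and 13100 in het. Sdc4 had 21000 and 22500 in WT against 19300 and 34400 in TG, and 6740 and 5590 in WT against 5500 and 5480 in het. So Col18a1 lay just higher in both TG libraries and overlapped in het, and Sdc4 was high in TG replicate 2 alone.
Gpc4 had 2080 and 1860 in WT and 1660 and 2150 in TG, and 558 and 595 in WT and 607 and 545 in het, overlapping in both tables. Col14a1 had 4680 and 3490 in WT and 4150 and 2870 in TG, and 860 and 1070 in WT and 1050 and 1130 in het. Col3a1 had 2690 and 1760 in WT and 2450 and 1380 in TG, and 398 and 534 in WT and 553 and 501 in het. Both of these collagens, products of fibroblasts and stellate cells, also overlapped in each table.
Col13a1 had 136 and 204 in WT and 192 and 191 in TG, and 67.3 and 48.2 in WT and 64.6 and 72.5 in het. Lama1 had 361 and 336 in WT and 351 and 284 in TG, and 89.7 and 105 in WT and 110 and 128 in het. Lamb1 had 480 and 421 in WT and 536 and 416 in TG, and 149 and 147 in WT and 147 and 130 in het. Of these, Lama1 in het was above both WT libraries and Lamb1 in het was at or below them, while the others overlapped.

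The remaining members are given by their ranges. The 16 listed only in the TG table had 4.87 to 108 normalised reads in its libraries, with 9 above and 7 below WT in TG, log2 fold changes of −0.87 to 0.83 and an adjusted p of 0.584 or more; the groups stood apart for 4 of them. Another 9, namely Col5a1, Col4a5, Col6a3, Col12a1, Col16a1, Lama2, Lama5, Lamb2 and Gpc6, stood in both tables and are not described singly. Their log2 fold changes were −0.55 to 0.25 in TG and −0.17 to 0.30 in het, and their groups overlapped for all 9 in het and for 7 in TG, where Col12a1 and Lama2 were lower in both libraries.

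Over all members, 22 were above and 30 below WT in TG (50.2% and 49.8% of all genes), with a median log2 fold change of −0.07 against 0.001 over all genes of the table. In het, 21 were above and 15 below (49.9% and 50.1% of all genes), with a median of 0.15 against −0.001 over all genes. Both mutant libraries lay beyond both WT libraries for 18 of 52 members in TG (6 higher and 12 lower) and for 18 of 36 in het (11 higher and 7 lower). Over all genes that held for 43.5% in the TG table (21.8% higher and 21.6% lower) and for 48% in the het table (24.3% higher and 23.7% lower), so the shares of members in either direction together were near or below that background. The summed level of the members was 116060 and 102639 in WT against 112439 and 121724 in TG, and 34268 and 31236 in WT against 33457 and 34954 in het, overlapping in both tables.

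The fibrillar collagens, which form the fibres of connective tissue, numbered 9 in the TG table and 7 in the het table. In TG, 7 of 9 were below WT (median −0.24), and in het 4 of 7 were above (median 0.17). Col5a3, a minor type V chain at chr9:20770050-20815067 on the minus strand (GRCm38), had 838 and 743 normalised reads in WT and 130 and 51.1 in TG. In the other table it had 183 and 210 in WT and 438 and 362 in het. Both TG libraries were far below both WT libraries, and both het libraries above theirs.
The log2 fold change of Col5a3 in TG was −3.26 (SE 0.46, 95% interval −4.48 to −2.04, adjusted p = 0.290, n = 2 per group in limma). In het Col5a3 rose 2.03 times (log2 1.02, SE 0.14, interval 0.70 to 1.33, adjusted p = 0.0154). That call was lost without WT replicate 1 (adjusted p = 0.0672) or without het replicate 1 (0.0926), and in TG Col5a3 passed without TG replicate 1 (0.0356) or TG replicate 2 (0.0280).

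Col1a2, a chain of type I collagen, the main fibre of scar tissue, had 200 and 235 in WT and 297 and 294 in het, higher in both (log2 0.45, SE 0.13, adjusted p = 0.148). Its TG values of 1190 and 668 overlapped those of WT, 1150 and 969 (log2 −0.24, SE 0.30, adjusted p = 0.803). Its partner Col1a1 had 72.2 and 164 in WT and 121 and 124 in het, where the het libraries lay between the WT libraries. Neither chain of type I collagen passed the test in either table.
Col5a2 had the largest positive log2 fold change of any member in TG, 1.14 (SE 0.71, adjusted p = 0.656). Its values were 465 and 252 in WT and 414 and 1380 in TG, so only TG replicate 2 was high. In het it had 49.1 and 67.9 against 72.2 and 64.6 in WT, again overlapping.

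Network-forming collagens, of which type IV is the sheet of the basement membrane, numbered 8 in the TG table and 3 in the het table. Col4a1 and Col4a2, the chains of the common type IV trimer, lie head to head at chr8:11198423-11312826 (minus strand) and chr8:11312805-11449287 (plus strand), and their gene models overlap by 22 bases. Col4a1 had 429 and 466 normalised reads in WT and 724 and 875 in het, and 1770 and 1420 in WT and 1200 and 1080 in TG. Col4a2 had 304 and 284 in WT and 396 and 414 in het, and 1220 and 1090 in WT and 678 and 720 in TG. For both genes each het library was above and each TG library below its WT pair.
Col4a1 rose 1.79 times in het (log2 0.83, SE 0.12, interval 0.56 to 1.10, adjusted p = 0.0165), a call lost without WT replicate 1 (adjusted p = 0.0764) or het replicate 2 (0.0743). Col4a2 was 1.38 times higher in het without passing (log2 0.46, SE 0.11, adjusted p = 0.0884). In TG the log2 fold changes were −0.48 for Col4a1 (SE 0.15, adjusted p = 0.526) and −0.72 for Col4a2 (SE 0.13, adjusted p = 0.348). The other network-forming members were low: Col8a2 had 24.0 and 16.2 in WT and 39.0 and 33.1 in TG (log2 0.83, adjusted p = 0.584), and Col4a4, a chain of the kidney type of basement membrane, had 16.0 and 16.2 in WT and 24.4 and 34.1 in TG (log2 0.80, adjusted p = 0.592).

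Col15a1 belongs with Col18a1 to the multiplexins, which link basement membrane to the matrix below. It had 116 and 133 normalised reads in WT and 273 and 220 in het, and rose 1.98 times (log2 0.97, SE 0.16, interval 0.61 to 1.34, adjusted p = 0.0311). Without WT replicate 1 its adjusted p was 0.119 and without het replicate 1 it was 0.169. In the TG table it had 1270 and 735 in WT and 798 and 510 in TG, and the groups overlapped (log2 −0.60, SE 0.35, adjusted p = 0.636).

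Among the beaded-filament collagens (type VI) and the fibril-associated collagens, no member passed. Col6a1, a chain of type VI microfilaments, had 140 and 139 in WT and 102 and 112 in het (log2 −0.39, SE 0.16, adjusted p = 0.302). TG had 735 and 507 against 484 and 427 in WT (log2 0.42, SE 0.22, adjusted p = 0.598). It was thus lower in both het libraries and higher in both TG libraries. Its partner Col6a2 overlapped in both tables, at 324 and 217 in WT against 379 and 238 in TG, and at 60.5 and 60.5 in WT against 49.1 and 82.8 in het.
Col20a1, a little-studied collagen, had 96.5 and 58.4 in WT and 50.0 and 43.7 in het (log2 −0.67, SE 0.27, adjusted p = 0.308). The TG libraries, at 367 and 174, overlapped WT at 238 and 134.

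Lamb3 encodes the beta chain of laminin-332, the laminin of skin and other epithelia, and lies at chr1:193207699-193343878 on the plus strand. It had 84.8 and 93.3 normalised reads in WT and 341 and 423 in het, and 584 and 463 in WT and 128 and 277 in TG. The groups stood apart in both tables, in opposite directions. In het Lamb3 rose 4.29 times (log2 2.08, SE 0.15, interval 1.73 to 2.43, adjusted p = 0.00103), and it was the only member that passed under each of the 4 fits that left out 1 library of the het table. With all 8 libraries fitted together none of the 5 members that rose passed, Lamb3 included (adjusted p = 0.17). In TG the mean was 2.58 times lower (log2 −1.46, SE 0.40, interval −2.52 to −0.40, adjusted p = 0.518), and Lamb3 passed there without TG replicate 2 (log2 −2.02, adjusted p = 0.0472).
Lama3, the alpha chain of laminin-332, was scarce. It had 16.0 and 20.2 in WT and 29.2 and 35.1 in TG (log2 0.80, SE 0.37, adjusted p = 0.584), and in the WT pair of that table it stood at 1.68 normalised reads per kb against 79.2 for Lamb3. Lama3 was above WT in both TG libraries, the opposite side from Lamb3, and it was not among the genes of the het table.

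Of the other laminins, Lama4, the alpha chain of vascular laminins, had 45.8 and 54.3 in WT and 81.9 and 86.3 in het (log2 0.74, SE 0.21, adjusted p = 0.147), and 255 and 261 in WT and 249 and 146 in TG (log2 −0.43, SE 0.29, adjusted p = 0.659). The het libraries were clear of WT, while TG replicate 1 was only just below. Lamc1, the gamma chain shared by most laminins and the highest of its class per kb, had 260 and 243 in WT and 296 and 324 in het (log2 0.30, SE 0.12, adjusted p = 0.295). Its TG values, 994 and 870, lay between the WT values of 1150 and 774. By class, 3 of 4 alpha chains, 1 of 3 beta chains and 1 of 1 gamma chains were above WT in het, against 2 of 5, 1 of 3 and 1 of 3 in TG.

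**Figure D2:**
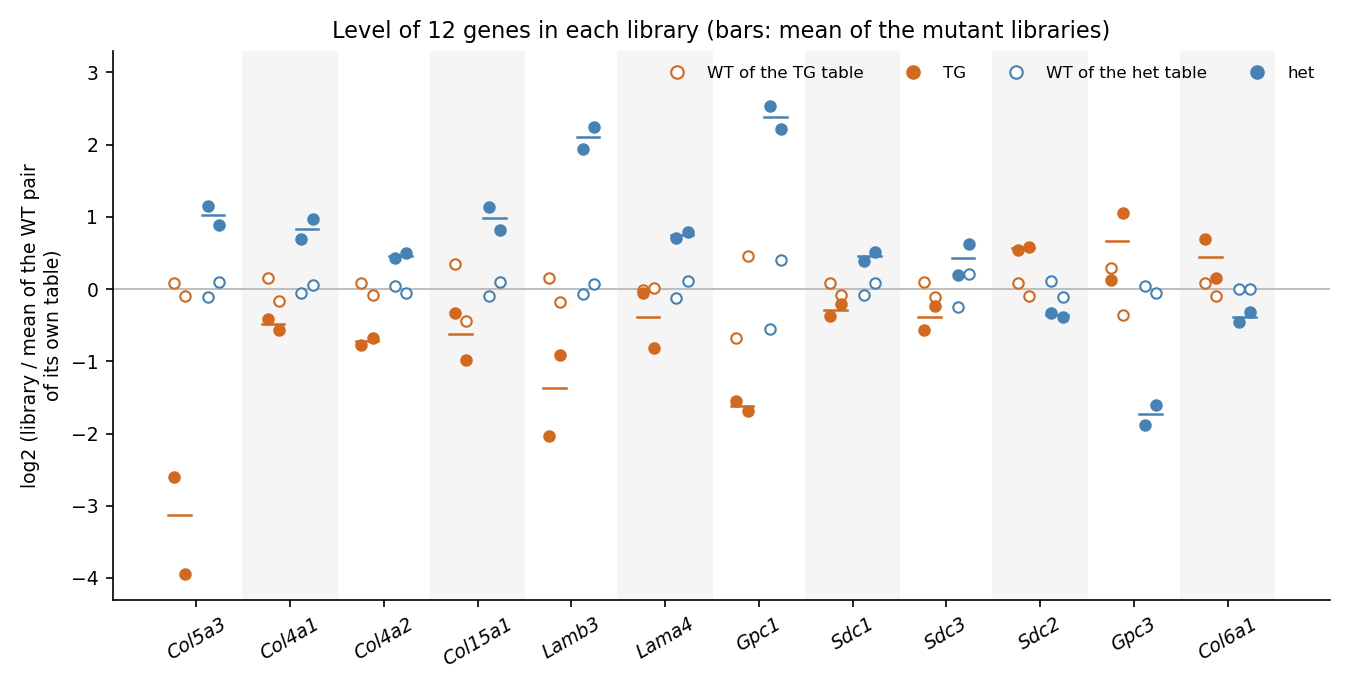
Level of 12 members in every library, as log2 of the value over the mean of the WT pair of its own table; open points are WT libraries, filled points TG (orange) or het (blue) libraries, and bars the mean of the mutant libraries. Both TG libraries of Col5a3 lie far below WT (130 and 51.1 against 838 and 743), and Lamb3 and Gpc1 lie below WT in TG and above WT in het.

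Glypicans showed the widest fold changes among the surface proteoglycans. Gpc1, a glypican of muscle, nerve and vessels, lies at chr1:92831645-92860779 on the plus strand, and 977 bases of its exons overlap Ankmy1 on the other strand. It had 35.1 and 67.7 normalised reads in WT and 298 and 238 in het, and 145 and 318 in WT and 78.9 and 72.1 in TG. Both het libraries were above and both TG libraries below their WT pair, and the WT libraries beside TG were far apart.
Gpc1 rose 5.22 times in het (log2 2.43, SE 0.32, interval 1.63 to 3.22, adjusted p = 0.0393). The call was lost without het replicate 1 (adjusted p = 0.169) or het replicate 2 (0.127). In TG its mean was 3.07 times lower (log2 −1.50, SE 0.40, adjusted p = 0.518).
Gpc3, a glypican abundant in fetal liver and in liver cancer, lies at chrX:52272426-52613950 on the minus strand. It had 36.1 and 33.8 in WT and 9.48 and 11.5 in het, 3.33 times lower (log2 −1.65, SE 0.34, interval −2.43 to −0.87, adjusted p = 0.0633). The het mean of Gpc3, 10.5, was below the lower limit of that table (17.8). Gpc3 could thus be listed there only if higher in WT, so its direction in het carries no weight. In TG it had 97.5 and 185 against 109 and 69.7 in WT (log2 0.62, SE 0.40, adjusted p = 0.655). The het libraries were clear of WT and the TG libraries were not.

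Syndecans held 3 of the 4 highest places per kb, and no syndecan passed the test. Sdc2 had 2850 and 2440 normalised reads in WT and 2100 and 2020 in het (log2 −0.36, SE 0.11, adjusted p = 0.183). In TG it had 11100 and 11400 against 8080 and 7130 in WT, 1.48 times higher (log2 0.57, SE 0.15, adjusted p = 0.518). It was the single member at an unadjusted p under 0.05 above WT in TG.
Sdc1 had 3770 and 4230 in WT and 5230 and 5710 in het (log2 0.45, SE 0.11, adjusted p = 0.110), and 15900 and 14200 in WT and 11600 and 13100 in TG (log2 −0.29, SE 0.16, adjusted p = 0.622). Sdc3, a syndecan best known from nerve and muscle that was named after its values were seen and shares 415 bases of exon with the gene model Gm26716, had 711 and 974 in WT and 964 and 1300 in het (adjusted p = 0.441), and 4420 and 3850 in WT and 2790 and 3520 in TG (adjusted p = 0.557). So Sdc1 lay on opposite sides of WT from Sdc2 in each table, with groups apart in all 4 cases, and Sdc3 was apart in TG only.

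The effect in TG minus the effect in het was tested in a joint fit of all 8 libraries over the 11768 genes in both tables, in which each WT pair takes up the scale of its own table. The difference passed for 4 of 36 members, all with TG lower, against 0.433% of all genes (0.229% lower). At an unadjusted p under 0.05 it held for 12 of 36 members (16.7% of all genes), 9 lower (8.27%) and 3 higher (8.42%). It was −4.28 on the log2 scale for Col5a3 (SE 0.55, interval −5.60 to −2.95, adjusted p = 0.0442) and −3.54 for Lamb3 (SE 0.48, interval −4.69 to −2.40, adjusted p = 0.0442). It was −1.18 for Col4a2 (SE 0.15, interval −1.54 to −0.83, adjusted p = 0.0302) and −1.31 for Col4a1 (SE 0.20, interval −1.78 to −0.84, adjusted p = 0.0495).
None of these 4 passed without either library of the WT pair of the TG table, or without any 1 of the libraries of the het table, where the adjusted p ran from 0.0568 to 0.253. The difference did not pass for Gpc1 (−3.92, SE 0.60, adjusted p = 0.0588), Sdc2 (0.92, SE 0.17, adjusted p = 0.0784), Gpc3 (2.27, SE 0.52, adjusted p = 0.117), Sdc1 (−0.74, adjusted p = 0.143) or Col15a1 (−1.57, adjusted p = 0.177).

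The 2 comparisons rest on different WT libraries. Point estimates had opposite signs in TG and het for 26 of 36 members, against 58.7% of all genes. Groups stood apart in both tables and in opposite directions for 9 of 36 members (15.1% of all genes): Col5a3, Col4a1, Col4a2, Gpc1, Lamb3, Lama4 and Sdc1 lower in TG and higher in het, and Sdc2 and Col6a1 the other way. They stood apart in the same direction for 1 member, Col27a1 (7.22% of all genes), which was lower in both. An unadjusted p under 0.05 in both tables with opposite signs was found for 6 of 36 members, against 2.02% of all genes, and with the same sign for 0 members, against 0.263%.

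**Figure D3:**
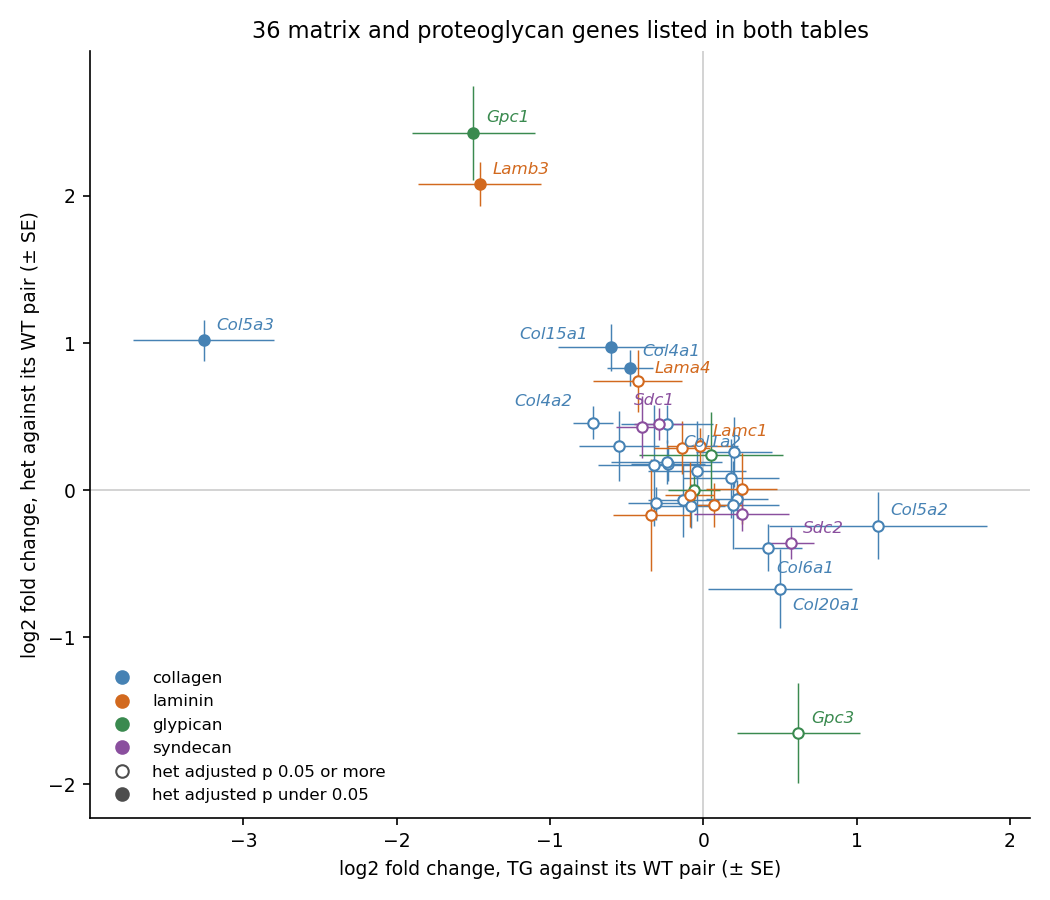
Log2 fold change against the WT pair of the same table in TG (horizontal) and het (vertical) for the 36 members in both tables, with bars of 1 SE; filled points passed the adjusted threshold in het. Col5a3, Gpc1 and Lamb3 lie at the upper left, with TG values of −3.26, −1.50 and −1.46 and het values of 1.02, 2.43 and 2.08.

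Ratios of pairs of members within a library do not depend on the factor by which the library was scaled. The pairs were chosen after the values were seen, so they are given with no test. Sdc1 over Sdc2 per kb was 1.82 and 1.84 in WT and 0.964 and 1.06 in TG, and 1.22 and 1.61 in WT and 2.30 and 2.62 in het. Sdc1 thus stood above Sdc2 in all libraries except TG replicate 1, where they were nearly level.
Lamb3 over Lamb1 was 1.82 and 1.65 in WT and 0.357 and 1.00 in TG, and 0.853 and 0.954 in WT and 3.49 and 4.88 in het. The WT pairs themselves differed in this ratio. Gpc1 over Gpc4 was 0.0358 and 0.0882 in WT and 0.0245 and 0.0172 in TG, and 0.0323 and 0.0585 in WT and 0.253 and 0.224 in het, and Gpc4 was higher than Gpc1 per kb in every library.
Chains that share a trimer were set against each other in the same way. Col4a1 over Col4a2 was 1.28 and 1.16 in WT and 1.56 and 1.33 in TG, and 1.25 and 1.46 in WT and 1.62 and 1.87 in het, so it was above its WT pair in both mutants. Col1a1 over Col1a2 was 0.873 and 0.73 in WT and 0.784 and 0.73 in TG, and 0.683 and 1.32 in WT and 0.768 and 0.799 in het, within the range of WT in each table.

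**Figure D4:**
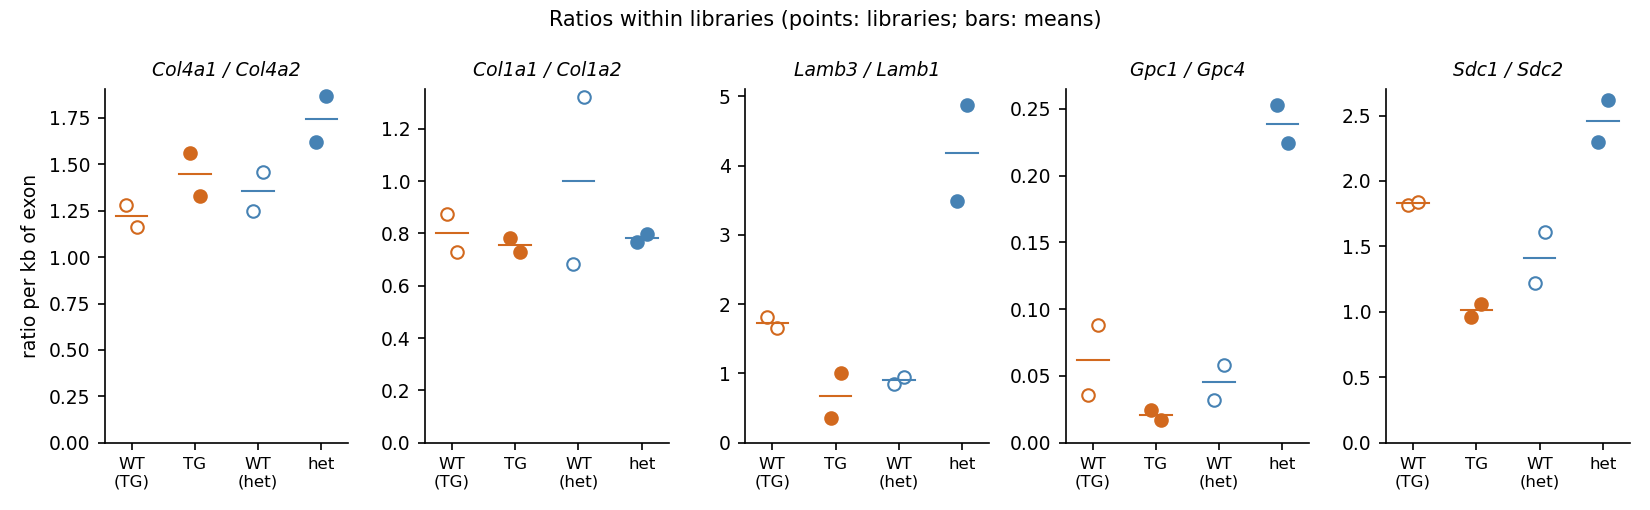
Ratio of 5 pairs of members per kb of exon in each library, by group; points are libraries and bars group means, and each axis starts at 0. Sdc1 over Sdc2 is lower in TG (0.964 and 1.06) than in its WT pair (1.82 and 1.84) and higher in het (2.30 and 2.62) than in its own (1.22 and 1.61).

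Genes that act on these proteins were followed in 6 lists. The genes for synthesis and editing of heparan sulfate, the sugar chain of glypicans and syndecans, were balanced. Of these, 11 of 23 were above WT in TG (median −0.01) and 11 of 22 in het (median 0.01). Sulf1, which removes sulfate groups from the chain outside the cell, fell in het from 27.3 and 39.0 normalised reads to 6.89 and 8.05 (log2 −1.99, SE 0.39, adjusted p = 0.0491). The het mean of Sulf1, 7.47, was below the lower limit of that table (17.8). Sulf1 could thus be listed there only if higher in WT, so its direction carries no weight. In TG it had 78.0 and 173 against 187 and 75.8 in WT, overlapping.
Its paralog Sulf2, named after its values were seen and known to act on hepatocyte Sdc1, had 1540 and 1630 in WT and 882 and 1090 in TG (log2 −0.69, adjusted p = 0.440), and 493 and 488 in WT and 643 and 710 in het (log2 0.46, adjusted p = 0.0695). The difference between its effects passed, at −1.15 (SE 0.17, adjusted p = 0.0468). Without any 1 of the 4 het table libraries or the 2 WT libraries of the TG table, the adjusted p of Sulf2 was 0.118 to 0.253, and Sulf1 in het did not pass without any 1 library of its table (0.124 to 0.178).

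Of matrix proteases and their inhibitors, 9 of 16 were above WT in TG (median 0.06) and 7 of 12 in het (median 0.08). Timp3, an inhibitor that stays bound to the matrix and was named after its values were seen, had 2010 and 2210 in WT and 1690 and 1540 in TG (log2 −0.39, adjusted p = 0.526), and 357 and 474 in WT and 552 and 614 in het (log2 0.50, adjusted p = 0.169). Its groups were apart in both tables, and in het it passed without WT replicate 2 (adjusted p = 0.0469). Of the TGF-beta list, 13 of 22 were above WT in TG (median 0.25) and 9 of 19 in het (median −0.03).

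Collagen processing and cross-linking genes were above WT for 12 of 25 in TG (median −0.01) and 14 of 22 in het (median 0.11), and none passed. The smallest p-values were those of Plod1, a lysyl hydroxylase, and Colgalt2, a collagen galactosyltransferase, in TG, and of Serpinh1, the collagen chaperone, and Colgalt2 in het. Colgalt2 had 133 and 73.8 in WT and 51.6 and 61.1 in TG (log2 −0.81, adjusted p = 0.569), and 9.75 and 15.4 in WT and 24.1 and 32.2 in het (log2 1.12, adjusted p = 0.231). Its WT mean beside het, 12.6, was below the lower limit of that table (17.8), so it could be listed there only if higher in het. Plod1 had 3970 and 4250 in WT and 2820 and 3570 in TG (adjusted p = 0.559), and Serpinh1 had 360 and 333 in WT and 272 and 276 in het (adjusted p = 0.214). The groups were apart in each of these cases.

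Receptors for collagen and laminin were above WT for 7 of 16 in TG (median −0.03) and 10 of 15 in het (median 0.08), with no call. Dag1, the laminin receptor dystroglycan, had 1010 and 1190 in WT and 1480 and 1470 in het (log2 0.43, adjusted p = 0.110). Mrc2, a receptor that takes up collagen, had 22.4 and 29.7 in WT and 11.2 and 13.8 in het (adjusted p = 0.261). The het mean of Mrc2, 12.5, was below the lower limit of that table (17.8), so it could be listed there only if higher in WT. In TG the smallest p-values were those of the integrins Itga1 (log2 0.32, adjusted p = 0.575) and Itgb1 (log2 0.23, adjusted p = 0.621).
Partners of collagen IV and laminin in the basement membrane were above WT for 5 of 14 in TG (median −0.11) and 8 of 12 in het (median 0.24), with no call. Hspg2, the basement membrane proteoglycan perlecan, had 276 and 265 in WT and 359 and 362 in het (log2 0.41, adjusted p = 0.120), and Sparc, which binds collagen IV, had 847 and 985 in WT and 1180 and 1210 in het (log2 0.39, adjusted p = 0.127). In TG, Nid2, a nidogen, had 183 and 144 in WT and 480 and 186 in TG (log2 0.88, adjusted p = 0.621), and Tinagl1 had 840 and 951 in WT and 773 and 773 in TG (log2 −0.21, adjusted p = 0.640).

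**Figure D5:**
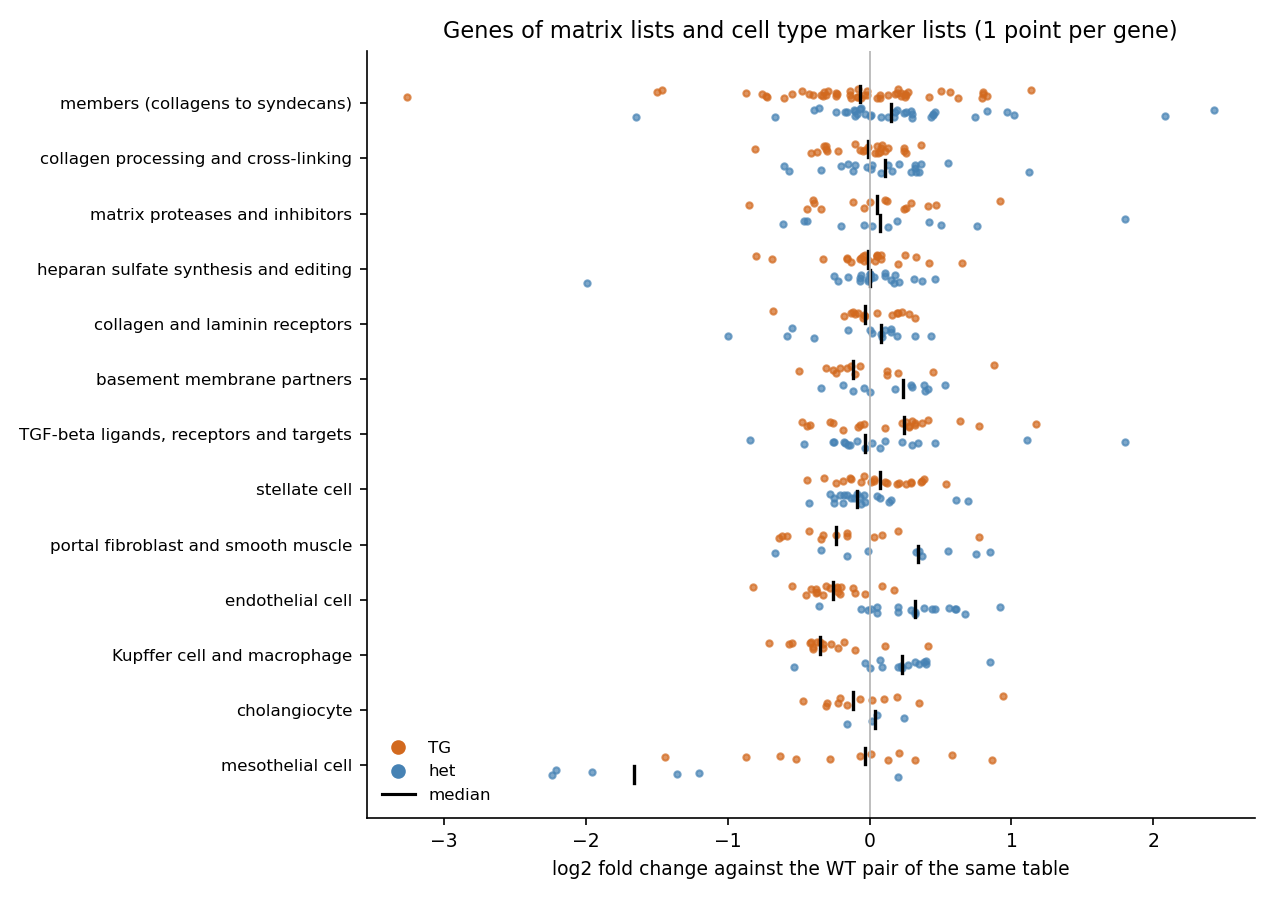
Log2 fold change against the WT pair of the same table for each gene of the members, of the lists around them and of cell type marker lists; a point is a gene, orange for TG and blue for het, and black bars are medians. The endothelial list lies mostly below 0 in TG (median −0.26) and mostly above 0 in het (median 0.32).

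Markers of the cells that make matrix in liver were read beside these results. In whole tissue, fewer cells of a type and less RNA per cell cannot be told apart. Of endothelial markers, 18 of 20 were below WT in TG (median −0.26), and their summed level was 25868 and 26026 in WT and 21670 and 21220 in TG. In het 16 of 19 were above WT (median 0.32), with sums of 6345 and 6701 in WT and 7632 and 7843 in het. Lyve1 and Gpr182, both of sinusoidal endothelium, rose in het, from 126 and 171 to 280 and 276 and from 208 and 221 to 317 and 367 (adjusted p = 0.0403 and 0.0442). Col4a1, Col4a2, Lama4 and Col15a1, which vascular cells are known to make, also had means below WT in TG and above WT in het. They were named for this pattern, and of them only Col4a1 and Col15a1 passed, in het. Other genes of the basement membrane were mixed. Nid1, Sparc, Tinagl1, Ntn4, Lama1 and Lamc1 also had means below WT in TG and above WT in het. Their log2 fold changes in TG and het were −0.07 and 0.38 for Nid1, −0.13 and 0.39 for Sparc, and −0.21 and 0.30 for Tinagl1. They were −0.31 and 0.53 for Ntn4, −0.14 and 0.29 for Lama1, and −0.02 and 0.30 for Lamc1. None of these passed. Lamb1, Col18a1, Lama5 and Hspg2 did not share the pattern. The log2 fold changes in TG and het were 0.07 and −0.10 for Lamb1 and 0.22 and −0.06 for Col18a1. They were 0.25 and 0.01 for Lama5, and 0.20 and 0.41 for Hspg2. No endothelial marker passed in TG, and the part of endothelial cells in these results was not tested.
Markers of stellate cells, the main source of collagen in scarred liver, were above WT for 14 of 22 in TG (median 0.07; sums 29316 and 32124 in WT, 36454 and 29131 in TG) and for 6 of 21 in het (median −0.09; sums 10221 and 10262 in WT, 9405 and 10258 in het). The stellate cell marker Lrat had 1550 and 1620 in WT and 1820 and 1390 in TG, and 345 and 435 in WT and 394 and 327 in het. These values overlapped in both tables.
Markers of portal fibroblasts and smooth muscle were above WT for 4 of 13 in TG (median −0.24; sums 16688 and 13960 in WT, 14671 and 12633 in TG) and for 6 of 10 in het (median 0.34; sums 3659 and 3833 in WT, 5036 and 4615 in het). Markers of Kupffer cells and macrophages were above WT for 2 of 17 in TG (median −0.35; sums 46234 and 42818 in WT, 28867 and 40179 in TG) and for 13 of 15 in het (median 0.23; sums 10617 and 13889 in WT, 12674 and 16438 in het). The part of both in the members' values was not tested.

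Mesothelial markers, of the cells that cover the liver, moved beside Gpc3 and Sulf1 in het. Of the 6 in that table, 5 were below WT and 3 fell (median −1.66; sums 3121 and 3684 in WT, 3507 and 3140 in het, most of it Krt8). Upk3b, a mesothelial surface protein, had 79.0 and 73.8 in WT and 14.7 and 16.1 in het (log2 −2.24, adjusted p = 0.00891). Gpm6a and Slpi also fell (log2 −1.96 and −2.21, adjusted p = 0.0442 and 0.0394). The het means of Upk3b, Gpm6a and Slpi (15.4, 9.49 and 17.1) were below the lower limit of that table (17.8). Each could thus be listed only if higher in WT, as could Gpc3 and Sulf1. Their direction therefore carries no weight in that count and median.
In TG, 6 of 12 were above WT (median −0.03; sums 11805 and 10774 in WT, 8649 and 8848 in TG, most of it Krt8). Krt8 had 8780 and 9090 in WT and 7780 and 6970 in TG, and Igfbp5 had 1820 and 1220 against 344 and 878. Upk3b had 235 and 74.8 in WT and 103 and 205 in TG. WT replicate 1 and TG replicate 2 were thus the higher libraries of their groups for Upk3b, as they were for Gpc3 (109 and 69.7 in WT, 97.5 and 185 in TG) and Sulf1. The part of these cells in the values of Gpc3 and Sulf1 was not tested. Of the other lists, markers of cholangiocytes were above WT for 5 of 12 in TG and 3 of 4 in het, and those of lymphocytes and other leukocytes, which include Sdc1, for 6 of 18 and 3 of 8, with no call in either.
Markers of adipocytes and mesenteric fat were below WT for 3 of 3 in TG (median −0.38). Their sums were 210490 and 135901 in WT and 84965 and 111402 in TG, nearly all of it Car3. In het 4 of 4 had point estimates above WT (median 0.62). The sums were 34112 and 47438 in WT and 42304 and 39320 in het. Car3 was level in het (log2 0.01), with overlapping groups. Cfd, listed in the het table alone, had 1.95 and 13.3 in WT and 22.4 and 54.1 in het. Its WT mean of 7.64 was below the lower limit of that table. Cfd could thus be listed only if higher in het, so its direction carries no weight in that count and median. Fabp4, also made by endothelium and macrophages, had 430 and 410 in WT and 307 and 339 in TG, and 104 and 150 in WT and 237 and 243 in het (adjusted p = 0.545 and 0.0511). No gene of this list passed, the defining markers Adipoq, Lep and Plin1 were not among the genes of either table, and its part in the members' values, some of which lay on the same sides of WT (Col5a3, Col4a1 and Col15a1), was not tested.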

How the data were processed

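There were 8 TruSeq libraries of liver RNA, per the labels. Tools named, without a role, in the submitters' processing notes are featureCounts, DESeq2 and Subread 1.5.2; the build is GRCm38 (mm10). No source used here gives the annotation or says whether reads were counted by strand, so values of genes that overlap another on the opposite strand are uncertain. The deposited signal values are read counts that the authors had divided by 1 factor per library. From the values, every entry was a whole multiple of the worth of 1 read (100%, within 0.01 of a read), which gave the depth. The tables list genes with a mean of at least 11.2 (TG) and 17.8 (het) normalised reads, and members below that were not analysed in that table.

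Values were taken to log2(value + 1) and tested with limma 3.58.1 under R 4.3.3 (lmFit, then eBayes with its trend and robust options) over all genes of a table, with Benjamini-Hochberg adjustment and a threshold of 0.05. Count tests had also been planned, and they were not used on the normalised values. The difference of the effects used a joint fit over 11768 genes. Positions and exon lengths came from GENCODE M21 on GRCm38 by symbol. An exon length covers the exons of all transcripts of a gene model, 12426 bases for Col1a2 and 6563 for Col1a1. Where it exceeds the transcript that is expressed, the level per kb comes out too low. Close ranks and the size of a ratio between genes therefore depend on it. Members, gene lists and tests were chosen with earlier results of these data known. Members were named singly where they passed the test, had an unadjusted p under 0.05, were highest per kb in their class in WT, or had the 3 largest log2 fold changes on a side; Lama3, Col1a1, Col6a2, Sdc3, Sulf2, Timp3 and genes named for a shared pattern were chosen after their values were seen. Of each list around the members, genes that passed are named, or else those of the smallest p; some genes that these rules select are left out of this text. Alternatives were pseudocounts of 0.5 and 5, a mean CPM of at least 5, TMM scaling computed from the values, library totals without the 20 most abundant genes, no robust estimates, 1 fit of all 8 libraries, the replicate block, and leaving out each library. The fit and the scaling were tested on simulated data with 200 changed genes. Every simulated gene had the same small dispersion, so the simulation does not show how the fit treats genes whose replicates lie far apart.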

Additional observations from a re-analysis of the deposited data

Results flagged for a closer look

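The effect in TG minus the effect in het passed its own test for 4 members, and the values of each mutant lay on opposite sides of its WT pair. On the log2 scale the difference was −4.28 for Col5a3, −3.54 for Lamb3, −1.31 for Col4a1 and −1.18 for Col4a2 (adjusted p = 0.0442, 0.0442, 0.0495 and 0.0302 in limma). The TG effect passed for none of the 4 on its own, and the het effect did not pass for Col4a2. Without het replicate 2 the adjusted p of the difference was 0.192 for Col5a3, 0.237 for Lamb3, 0.253 for Col4a1 and 0.163 for Col4a2. The WT pairs come from tables that were scaled separately, and depth also differs between the tables, so that genotype and table cannot be told apart in this difference.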

How the results depend on the processing

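With 2 libraries per group and 2 residual degrees of freedom per table, the counts of calls rested on single libraries. In TG, 0 members passed, 1 (Col5a3) when all 8 libraries were fitted together, and 0 to 2 when each library was left out. In het, 5 passed, 0 when all 8 libraries were fitted together, and 2 to 5 when each library was left out. For the difference of the effects 4 passed, 2 with library totals taken without the 20 most abundant genes, and 0 to 8 when each library was left out. Under leave-one-out fits the median log2 fold change of the members was −0.21 to 0.08 in TG. It was 0.01 to 0.25 in het and −0.42 to −0.04 for the difference. The sign of the median in TG rested on TG replicate 2. The median difference was −0.36 with a mean CPM of at least 5, which leaves 26 of 36 members, against −0.18. Over 757 values of named genes under alternatives, 678 kept direction and side of the threshold, 62 lost and 11 gained a call, and 6 changed sign. The sign changes were all in TG under leave-one-out fits, over which the log2 fold change ran from −0.30 to 0.26 for Lamc1, −0.68 to 0.61 for Sulf1, −0.04 to 1.03 for Col20a1 and −0.66 to 0.17 for Col1a2. An arm left with 1 library was assumed to vary like the others.

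Libraries of the same replicate number deviated together with a correlation of 0.11 in the TG table and −0.04 in the het table, over genes, so the numbers were not taken to pair the libraries. With the replicate number as a block, 0 members passed in TG, 4 in het (adjusted p = 0.0773 for Gpc1) and 2 for the difference. Planned count tests with edgeR and DESeq2 were not run: the deposited values are normalised, and the whole-read steps in them were used only to describe depth. Members below the lower limit of a table were not analysed there.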
